A study of Arabidopsis thaliana with 4 samples.

Results

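The genes described here make, regulate and transport glucosinolates in Arabidopsis thaliana. They were chosen by locus identifier from a list of 38 genes: 23 of the aliphatic branch, 11 of the indolic branch, and 4 of shared steps and transport. Of these, 37 had a row among the 32678 loci of the deposited table, and 34 had enough signal to be tested. AOP2 (AT4G03060), which the reference annotates as a transcribed pseudogene, is not analysed here.

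Glucosinolates are sulfur-rich defence compounds of the cabbage order, which myrosinases split into toxic products when tissue is damaged. The aliphatic branch lengthens the side chain of methionine and the indolic branch starts from tryptophan. In both, a CYP79 enzyme makes an aldoxime, a CYP83 enzyme activates it, glutathione gives the sulfur, and a glucosyltransferase and a sulfotransferase finish the core. MYB factors switch on each branch, and GTR carriers load the finished compounds into cells and the phloem.

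RNA of whole plants was sequenced in 2 samples of wild type (WT) and 2 of 35S:TEM1, which overexpresses the RAV-family repressor gene TEM1 from a viral promoter that is active in most plant cells. Per the labels, RNA of 20 plants was pooled for each sample, at an age of 10 days and at ZT18, under LD and 22 °C. The wild type's accession and the number of transgenic lines were not found in the labels. No label says that the pools were grown separately, so the p-values reflect only how much these samples vary, which may be technical.

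Values are RPKM, read numbers scaled by gene length and by the total of the library. Low values put those totals at 20183817 to 30425737 reads per sample, as estimates. TEM1 (AT1G25560) had 784 and 827 in 35S:TEM1 plants, against 16.3 and 30.3 in WT. All 20 markers of root, leaf epidermis, mesophyll and phloem companion cells were above 0 in every sample. Differences are 35S:TEM1 minus WT on log2(RPKM + 1), tested with limma across 17746 genes with a mean RPKM of at least 1. A gene is called higher or lower at an adjusted p under 0.05, which 25.7% of those genes reached (18.3% higher and 7.37% lower). Over all of these genes the median difference was 0.12.

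The promoter sequences of 6 called members are shown as examples. They are the neighbouring pair CYP79F1 and CYP79F2, which moved apart, CYP83A1 and MYB28, which rose, and CYP79B2 and CYP79B3, which fell. Of the called members not shown, MYB51 (-1.10), GTR2 (0.84), IPMI-SSU2 (0.56), IPMI-SSU3 (0.54) and SOT18 (0.54) all differed more in size than CYP79B2 (-0.50). Each printed window is the 250 bases before the annotated gene start, read 5′ to 3′ along the gene from the TAIR10.1 assembly of RefSeq. Capitals mark CAACA and CACCTG, the elements that RAV factors bind, and CACGTG, the G-box bound by MYC factors, searched on both strands. Capitals that spell TGTTG are CAACA on the opposite strand. In TAIR10.1 the windows lie at chr1:5608432-5608681 on the plus strand for CYP79F1, chr1:5604794-5605043 on the plus strand for CYP79F2 and chr4:7992430-7992679 on the minus strand for CYP83A1. The others lie at chr5:24691188-24691437 on the minus strand for MYB28, chr4:18524792-18525041 on the plus strand for CYP79B2 and chr2:9488163-9488412 on the plus strand for CYP79B3. The deposited table holds no coordinates, and genes were matched by locus identifier.
CYP79F1: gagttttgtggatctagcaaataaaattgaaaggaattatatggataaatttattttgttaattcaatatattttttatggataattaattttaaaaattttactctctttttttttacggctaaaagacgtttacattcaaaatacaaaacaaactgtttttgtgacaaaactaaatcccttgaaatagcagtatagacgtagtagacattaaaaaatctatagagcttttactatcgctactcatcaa
CYP79F2: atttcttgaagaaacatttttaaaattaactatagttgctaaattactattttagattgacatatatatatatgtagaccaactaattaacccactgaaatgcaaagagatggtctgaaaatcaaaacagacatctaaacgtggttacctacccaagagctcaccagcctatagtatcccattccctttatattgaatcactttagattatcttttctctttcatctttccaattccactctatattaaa
CYP83A1: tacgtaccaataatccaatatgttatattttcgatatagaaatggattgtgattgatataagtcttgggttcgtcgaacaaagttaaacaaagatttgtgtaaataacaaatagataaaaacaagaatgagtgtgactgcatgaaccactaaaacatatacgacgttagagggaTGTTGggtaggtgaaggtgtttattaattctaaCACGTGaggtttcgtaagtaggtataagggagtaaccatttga
MYB28: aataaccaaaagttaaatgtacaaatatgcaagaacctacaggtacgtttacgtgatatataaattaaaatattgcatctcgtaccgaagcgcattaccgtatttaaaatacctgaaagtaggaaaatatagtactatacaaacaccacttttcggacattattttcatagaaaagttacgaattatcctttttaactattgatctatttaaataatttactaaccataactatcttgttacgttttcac
CYP79B2: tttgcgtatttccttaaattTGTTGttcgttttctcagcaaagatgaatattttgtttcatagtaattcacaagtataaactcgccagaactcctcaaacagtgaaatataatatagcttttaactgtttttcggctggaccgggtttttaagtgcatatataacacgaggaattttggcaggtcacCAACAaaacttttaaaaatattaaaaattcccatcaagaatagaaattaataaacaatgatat
CYP79B3: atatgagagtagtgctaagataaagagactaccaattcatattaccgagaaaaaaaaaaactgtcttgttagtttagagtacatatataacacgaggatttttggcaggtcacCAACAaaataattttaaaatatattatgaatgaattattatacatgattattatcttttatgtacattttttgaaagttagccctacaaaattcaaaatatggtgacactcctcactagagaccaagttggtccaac

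CAACA was present in 6 of 22 aliphatic windows (27.3%), 7 of 11 indolic windows (63.6%) and 1 of 4 windows of shared genes, against 47.4% of 27443 protein-coding genes. CACCTG was in 1 of the 37 member windows, that of AOP3, against 2.6% of all genes. No member window held both elements, as 1.3% of all windows did. The G-box was in the windows of CYP83A1, IPMI-LSU1 and SUR1, and in 6.5% of all windows. Among the printed windows CYP79F1, CYP79F2 and MYB28 held none of these motifs. Of the called members, only CYP83A1, which rose, and CYP79B2 and CYP79B3, which fell, held CAACA. MYB51, the tested indolic member with the largest fall, held none. The other indolic windows with CAACA were those of GSTF9, GSTF10, UGT74B1, SOT16 and CYP81F2, which were not called. The windows of CYP79B2 and CYP79B3, on chromosomes 4 and 2, share a run of 22 identical bases that includes CAACA, ttttggcaggtcacCAACAaaa. It starts 77 bases before the start of CYP79B2 and 151 bases before that of CYP79B3. The stretch just before this run is also alike in both windows apart from a single base, so the likeness is not limited to the bases around CAACA. Over 666 pairs of member windows the median of the longest run shared by a pair was 9 bases, and no other pair shared a run of more than 15. The pairs were not matched for how related the genes are. These matches describe the letters and do not show that a factor binds there.

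In the aliphatic branch rises outnumbered falls: among 20 tested genes 7 rose in 35S:TEM1, 1 fell and 12 did not pass, against 18.3% higher and 7.37% lower among all tested genes. At an unadjusted p under 0.05, 9 were higher and 2 lower, beside 5089 higher and 2078 lower of all 17746 tested genes. Their median log2 difference was 0.25, against 0.12 for all tested genes, and it stayed above 0 in each alternative setting (0.10 to 0.31). None of the 10 tested indolic members rose in limma, 3 fell and 7 did not pass. At an unadjusted p under 0.05, 0 of these were higher and 4 lower. The indolic median was -0.06, and its sign was not stable: it was -0.29 without WT replicate 1, 0.10 without WT replicate 2 and 0.01 when a mean RPKM of 5 was asked for. Without 35S:TEM1 replicate 2, 3 aliphatic members were higher and 1 indolic member was lower. Without 35S:TEM1 replicate 1 there was also 1 lower indolic member. With equal sample medians 4 aliphatic members were higher and 2 lower, and 4 indolic members were lower. Whether the branches differ from each other was not tested, because members are not replicates. Of all 34 tested members, 8 rose and 4 fell. The groups did not overlap for 22 of the 34, with 14 of the 34 higher and 8 lower in 35S:TEM1. This is close to the shares of all tested genes. Of all tested genes 68.0% did not overlap, 47.4% of all being higher and 20.7% lower.

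**Figure D1:**
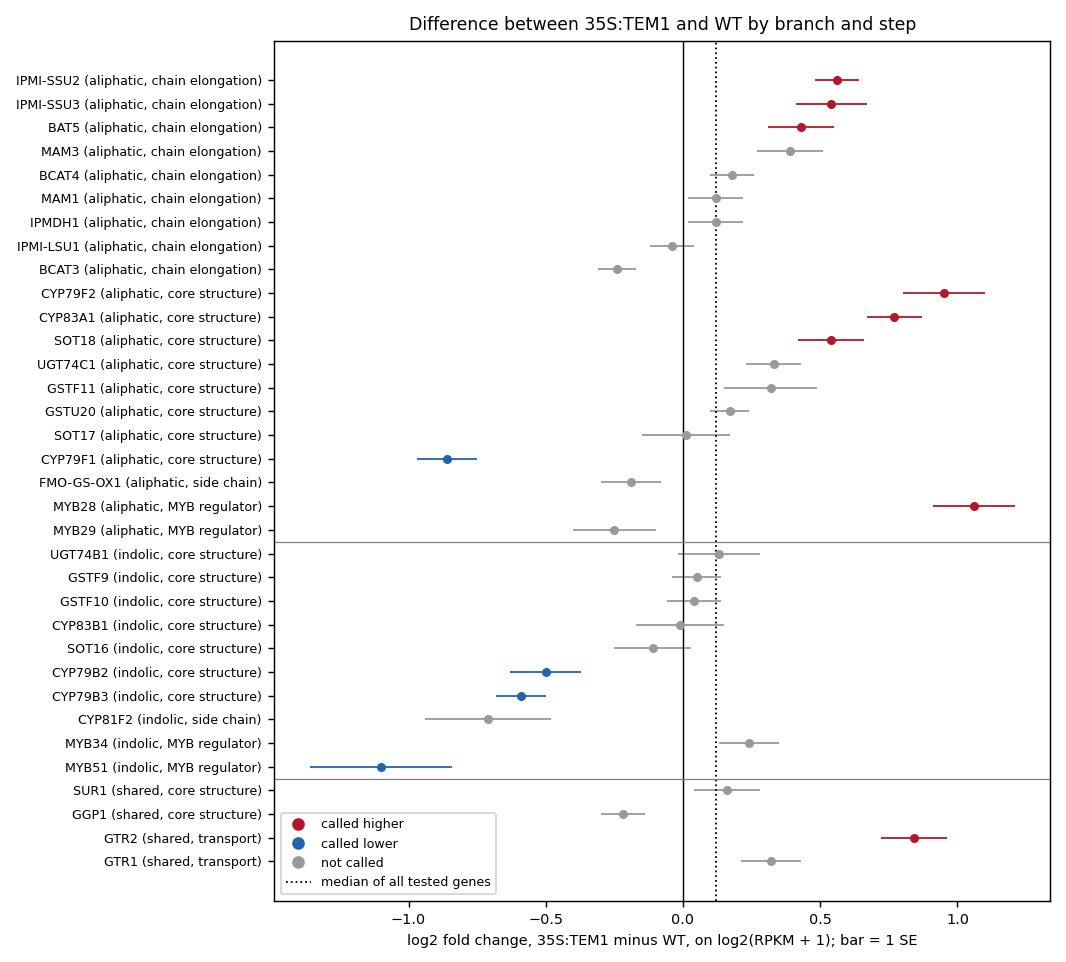
Log2 difference between 35S:TEM1 and WT on log2(RPKM + 1) for the 34 tested members (points, with 1 SE), ordered by branch and step, with called genes in colour and the median of all tested genes dotted. Called are 7 aliphatic rises, the fall of CYP79F1, 3 indolic falls and the rise of GTR2 (0.84), and the dotted median is 0.12. Called and uncalled members do not separate by size alone: CYP81F2 (-0.71) was not called and CYP79B2 (-0.50) was.

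The samples also differed in cell type markers. Among all tested genes 18.3% were higher and 7.37% lower. All 6 tested root markers rose (median 0.94), and the summed RPKM of the 7 listed was 44.7 and 48.0 in 35S:TEM1 plants, against 22.5 and 23.4 in WT. Most of that sum was a single gene, SCR, with 29.8 and 30.6 against 18.4 and 17.5. PRP3, CASP2 and EXPA7 had WT means of 0.84, 0.55 and 0.36, so only their 35S:TEM1 values brought them past the expression limit. The count of root marker rises and the median of 0.94 are therefore partly set by that filter. CASP1 (1.19), SCR (0.72) and NRT2.1 (0.90) had WT means above 1. Of 8 leaf epidermis markers 4 fell (median -0.45), with sums, mostly PDF1 and FDH, of 403 and 422 against 639.9 and 541. MYB60 of this list went the other way, with 11.8 and 9.97 against 9.27 and 7.92 (0.31, not called). ATML1 overlapped between the groups (-0.20). Across fits that each leave out 1 sample, FDH ran from -0.65 to -0.27 and SPCH from -0.59 to -0.34. The calls of FDH and SPCH were not kept in all of these fits. Both phloem companion cell markers fell, with sums of 103 and 103 against 126 and 137. Of these, SUC2 was close to the threshold (-0.29, limma adjusted p = 0.0494). Of 3 mesophyll markers 1 rose and 2 did not pass, and their sums, mostly RBCS1A, were 23203 and 27269 against 29284 and 30609. The part of these differences in the values below was not tested. In whole plants, fewer cells of a type and less RNA per cell cannot be told apart.

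Among the regulators, MYB28 (AT5G61420), the main activator of aliphatic synthesis, had 75 and 70.3 in 35S:TEM1 plants, against 29.2 and 40.4 in WT. Both 35S:TEM1 samples lay well above both WT samples, and the means of 72.6 ± 3.36 and 34.8 ± 7.91 (SD, n = 2 each) differ 2.09-fold (log2 difference 1.06 ± 0.15 SE, limma adjusted p = 0.00552). MYB29 (AT5G07690), which assists MYB28, had 5.40 and 6.29 against 6.12 and 8.28, and the groups overlapped (-0.25, adjusted p = 0.272). MYB76 (AT5G07700), a further aliphatic activator and the next gene to MYB29, was under the expression limit. Its RPKM was 0.10 and 0.28 in 35S:TEM1 and 0.61 and 0.45 in WT, or about 3 and 12.1 against 28.7 and 16.6 estimated reads. With no filter on low values its log2 difference was -0.37 (adjusted p = 0.0795). MYB28 was thus 13.9 and 11.2 times the level of MYB29 in 35S:TEM1, against 4.77 and 4.87 times in WT.

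Of the indolic regulators, MYB51 (AT1G18570), an activator of indolic synthesis in leaves that responds to pathogens, had 1.68 and 2.2 in 35S:TEM1 plants, against 3.80 and 7.19 in WT. The WT samples were far apart, but both lay above both 35S:TEM1 samples (-1.10 ± 0.26, adjusted p = 0.0264). Leaving out 35S:TEM1 replicate 1 (-0.97) or 35S:TEM1 replicate 2 (-1.23) ended this call, as did dropping the filter on low values. The size of the fall depended on the WT samples: it was -0.71 without WT replicate 2 and -1.48 without WT replicate 1, and the call held in both. MYB34 (AT5G60890), which acts mainly in roots, had 16.7 and 15.7 against 12.4 and 15.0, higher in both samples but not past the test (0.24, adjusted p = 0.174). The ratio of MYB34 to MYB51 was 9.95 and 7.16 in 35S:TEM1 plants, against 3.25 and 2.08 in WT. MYB122 (AT1G74080), a minor regulator, had 0.18 and 0.10 against 0.02 and 0, about 5.7 and 4.5 estimated reads against 1.1 and 0. In a gene of its length 3 reads correspond to an RPKM of 0.0631 to 0.0952, so the WT values lie under that floor.

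Chain elongation opens the aliphatic pathway: methionine is stripped of its amino group, moved into the plastid and lengthened in cycles. Of its 9 members 3 rose and 0 fell in limma, with 4 higher and 1 lower at an unadjusted p under 0.05. At that unadjusted level 5089 of all 17746 tested genes were higher and 2078 lower. Of all tested genes 18.3% were higher and 7.37% lower, so no lower call among 9 genes is near the background. IPMI-SSU2 (AT2G43100), a small subunit of the isomerase in the cycle, had 140.4 and 152 in 35S:TEM1 plants, against 101 and 96.9 in WT (0.56 ± 0.08, adjusted p = 0.00546). Its relative IPMI-SSU3 (AT3G58990) had 21.6 and 26.6 against 14.8 and 17.6 (0.54 ± 0.13, adjusted p = 0.0302). The groups do not overlap for either, and their ratio was alike in the genotypes (6.49 and 5.70 against 6.82 and 5.51). IPMI-SSU2 missed the threshold without 35S:TEM1 replicate 2 (0.50, adjusted p = 0.0508). IPMI-SSU3 lost its call on leaving out 35S:TEM1 replicate 2 (0.40) or WT replicate 1 (0.43), unfiltered, and under both other scalings (0.39 and 0.42). BAT5 (AT4G12030), the carrier that brings the keto acids into the plastid, had 14.1 and 12.8 against 8.84 and 10.8 (0.43 ± 0.12, adjusted p = 0.0461). That call was close to the threshold and ended in 7 of 13 alternatives: on leaving out 35S:TEM1 replicate 1 (0.36), 35S:TEM1 replicate 2 (0.49) or WT replicate 1 (0.30), under both other scalings (0.28 with equal sample medians), unfiltered, and without the variance trend.

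The condensing enzymes of the cycle differed in level more than in response. MAM1 (AT5G23010), which makes the shorter chains, had 118 and 131 in 35S:TEM1 and 123 and 107 in WT, and the groups overlapped (0.12, adjusted p = 0.419). Its neighbour MAM3 (AT5G23020), which can make all chain lengths, had 5.67 and 6.70 against 4.46 and 4.47, just short of the threshold (0.39, adjusted p = 0.0539). MAM3 was called with the replicate number as a block only. The large isomerase subunit IPMI-LSU1 (AT4G13430), shared with leucine synthesis, had 153 and 159.9 against 164 and 156 (-0.04). IPMDH1 (AT5G14200), the dehydrogenase of the cycle, had 71.9 and 80.2 against 73.9 and 65.6 (0.12). The SE of IPMI-LSU1 was 0.08. A further small subunit gene outside the members, IPMI-SSU1 (AT2G43090), named after its values were seen, had 149 and 152 against 156 and 179.8 and did not pass (-0.15, adjusted p = 0.251). The aminotransferases pointed in opposite directions: BCAT4 (AT3G19710), which starts the pathway in the cytosol, had 46.2 and 48.1 against 42.1 and 40.8 (0.18, adjusted p = 0.134). BCAT3 (AT3G49680), of the plastid and also used for amino acids, had 73.2 and 76.3 against 89.0 and 87.6 (-0.24, adjusted p = 0.0624). BCAT3 was called lower with equal sample medians (-0.39) and quantile normalization (-0.29). The ratio of BCAT4 to BCAT3 was 0.631 in both 35S:TEM1 samples and 0.473 and 0.466 in WT.

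The largest contrast inside the pathway lay at its entry into the core. CYP79F1 (AT1G16410), which makes aldoximes from elongated methionine of all chain lengths, had 7.42 and 8.29 in 35S:TEM1 plants, against 14.0 and 16.1 in WT. It fell to 0.521 times its WT mean (-0.86 ± 0.11, adjusted p = 0.00383). CYP79F2 (AT1G16400), its neighbour on chromosome 1 that takes only the long chains, had 2.88 and 3.39 against 0.98 and 1.30. It rose 2.75-fold (0.95 ± 0.15, adjusted p = 0.00739). The groups do not overlap for either gene, and both calls held in each alternative setting run (CYP79F2 was under the limit when a mean RPKM of 5 was asked for). CYP79F1 was 14.3 and 12.4 times as high as CYP79F2 in WT and 2.58 and 2.44 times as high in 35S:TEM1. The absolute ratio depends on the gene lengths the authors used, but its difference between genotypes does not. The pair shares little exact sequence: 1.70% of the 50-base windows of CYP79F1 exons and 2.89% of those of CYP79F2 occur exactly in another gene. In the samples where CYP79F1 fell and CYP79F2 rose, the tested root markers were higher and leaf epidermis markers lower. Their medians were 0.94, partly set by the filter as given above, and -0.45. Whether these changes are linked was not tested.

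CYP83A1 (AT4G13770), which oxidises the aliphatic aldoximes, had 104 and 101 in 35S:TEM1 plants, against 64.7 and 55.0 in WT, a 1.71-fold rise (0.77 ± 0.10, adjusted p = 0.00377) that held in all 13 alternative settings. It therefore moved opposite to CYP79F1, the preceding step. Among the sulfotransferases, which add the last group of the core, SOT18 (AT1G74090) had 33.8 and 33.4 against 20.4 and 25.7 (0.54 ± 0.12, adjusted p = 0.023). It missed the threshold when 35S:TEM1 replicate 1 (0.53) or 35S:TEM1 replicate 2 (0.54) was left out, and with equal sample medians (0.39). SOT17 (AT1G18590) had 10.3 and 10.9 against 8.87 and 12.5, with overlapping groups (0.01). The glucosyltransferase UGT74C1 (AT2G31790) had 49.7 and 55.4 against 38.9 and 44.1 (0.33, adjusted p = 0.0556). It passed with robust variance, with the replicate block and without WT replicate 2 (0.42).

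The glutathione transferases of the aliphatic branch were at opposite ends of the range. GSTU20 (AT1G78370) was the most abundant member in every sample, with 676 and 680.1 against 597 and 611 (0.17, adjusted p = 0.131), and it was called higher with quantile normalization only (0.30). GSTF11 (AT3G03190) had 6.52 and 8.02 against 4.70 and 6.64 (0.32, adjusted p = 0.214). All exon windows of GSTF11 also lie in exons of an overlapping gene on the opposite strand, AT3G03200, and since the strand setting is not given its level is uncertain. Overlaps also cover 25.5% of the exon windows of BCAT4, 14.5% of UGT74C1, 13.8% of GTR1 and 1.10% of GTR2. Of the side chain members, the S-oxygenase gene FMO-GS-OX1 (AT1G65860) had 6.88 and 6.85 against 7.35 and 8.70 (-0.19, adjusted p = 0.242). AOP3 (AT4G03050), which makes hydroxyalkyl side chains in some accessions, was listed at 0 in all 4 samples, and 3 reads in a gene of its length correspond to an RPKM of 0.0548 to 0.0826.

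**Figure D2:**
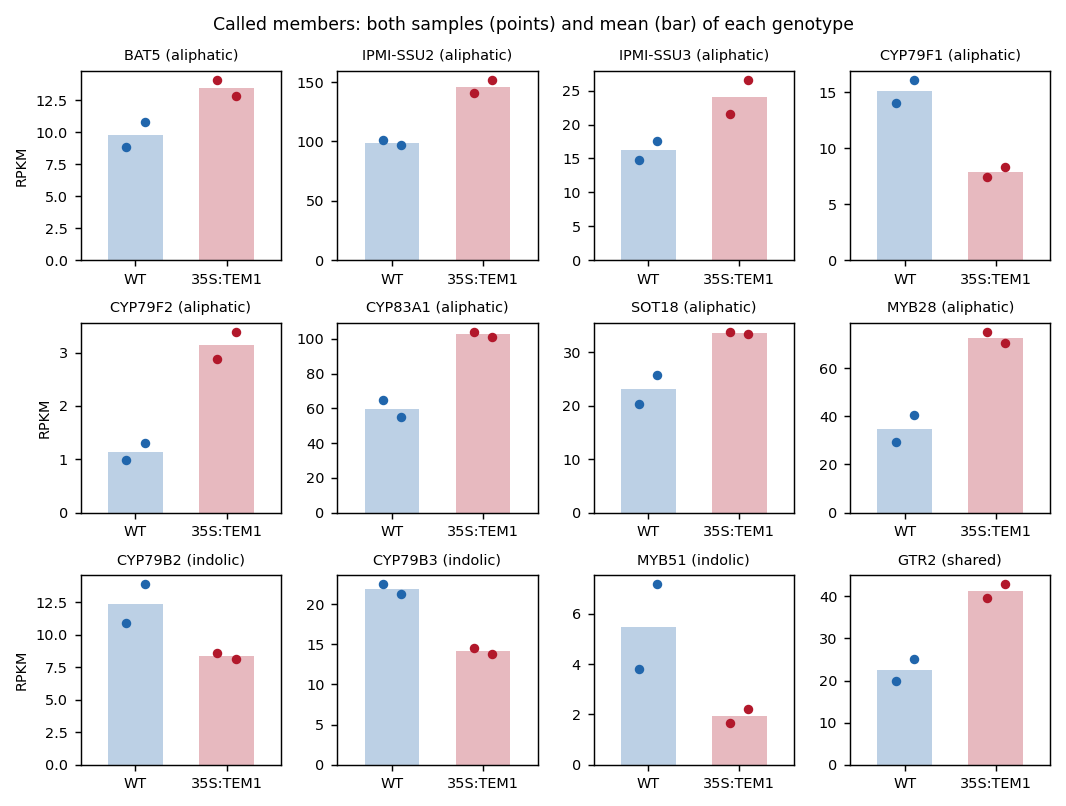
RPKM of the 12 called members in both samples (points) and the mean (bars, from 0) of WT and 35S:TEM1, each panel with its own axis. MYB28 and GTR2 rise from means of 34.8 and 22.6 to 72.6 and 41.2, and CYP79F1 falls from 15.1 to 7.85 while CYP79F2 rises from 1.14 to 3.13.

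In the indolic branch the called changes lay at the entry enzymes and in MYB51. CYP79B3 (AT2G22330) had 14.6 and 13.8 in 35S:TEM1 plants, against 22.5 and 21.3 in WT (-0.59 ± 0.09, adjusted p = 0.00626), a call that held in all 13 alternative settings. CYP79B2 (AT4G39950), which like CYP79B3 turns tryptophan into indole-3-acetaldoxime, had 8.61 and 8.17 against 10.9 and 13.9 (-0.50 ± 0.13, adjusted p = 0.037). Its call ended on leaving out 35S:TEM1 replicate 1 (-0.54), 35S:TEM1 replicate 2 (-0.47) or WT replicate 2 (-0.34), and unfiltered. The ratio of CYP79B3 to CYP79B2 was 1.70 and 1.69 against 2.07 and 1.53 and overlapped between genotypes. These are the members whose promoter windows share the 22-base run printed above. Leaf epidermis markers, with a median of -0.45, and phloem companion markers, with a median of -0.35, were lower in the same samples. The tested root markers, with a median of 0.94 that is partly set by the filter, were higher there. A link of the CYP79B2 and CYP79B3 falls to any of these lists was not tested.

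The later core enzymes of the branch did not pass the test, and their groups overlapped. CYP83B1 (AT4G31500), which oxidises indole-3-acetaldoxime, had 36.2 and 37.9 in 35S:TEM1, between the WT values of 31.2 and 44.8 (-0.01). SOT16 (AT1G74100), which lies next to SOT18, had 25.6 and 26.4 against 24.3 and 32.5 (-0.11), and UGT74B1 (AT1G24100) had 24.4 and 25.3 against 19.2 and 26.4 (0.13). The neighbouring transferases GSTF9 (AT2G30860) and GSTF10 (AT2G30870) differed by 0.05 and 0.04. GSTF9 had 544 and 614 against 538 and 576, and GSTF10 had 215 and 226 against 197 and 234. CYP81F2 (AT5G57220), which hydroxylates the indole ring for defence compounds, had 0.78 and 0.50 against 1.18 and 2.26 and missed the threshold (-0.71 ± 0.23, adjusted p = 0.0666). It was called lower in 4 of 12 alternatives: with equal sample medians (-0.86), quantile normalization (-0.91), the replicate block, and without WT replicate 1 (-1.0). It was -0.42 without WT replicate 2 (adjusted p = 0.208) and -0.59 without 35S:TEM1 replicate 2 (adjusted p = 0.226), and -1.26 with a pseudocount of 0.1 (adjusted p = 0.0639).

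The WT samples differed more in indolic genes than in most others. In 9 of 10 tested indolic members WT replicate 2 was above WT replicate 1, with a median log2 difference of 0.37. For all tested genes these were 53.4% and 0.02, and for the aliphatic members 13 of 20 and 0.18. Between the 35S:TEM1 samples the indolic median difference was 0.05. Values of the 35S:TEM1 samples therefore lay between those of the WT samples for CYP83B1, SOT16, UGT74B1 and GSTF10.

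**Figure D3:**
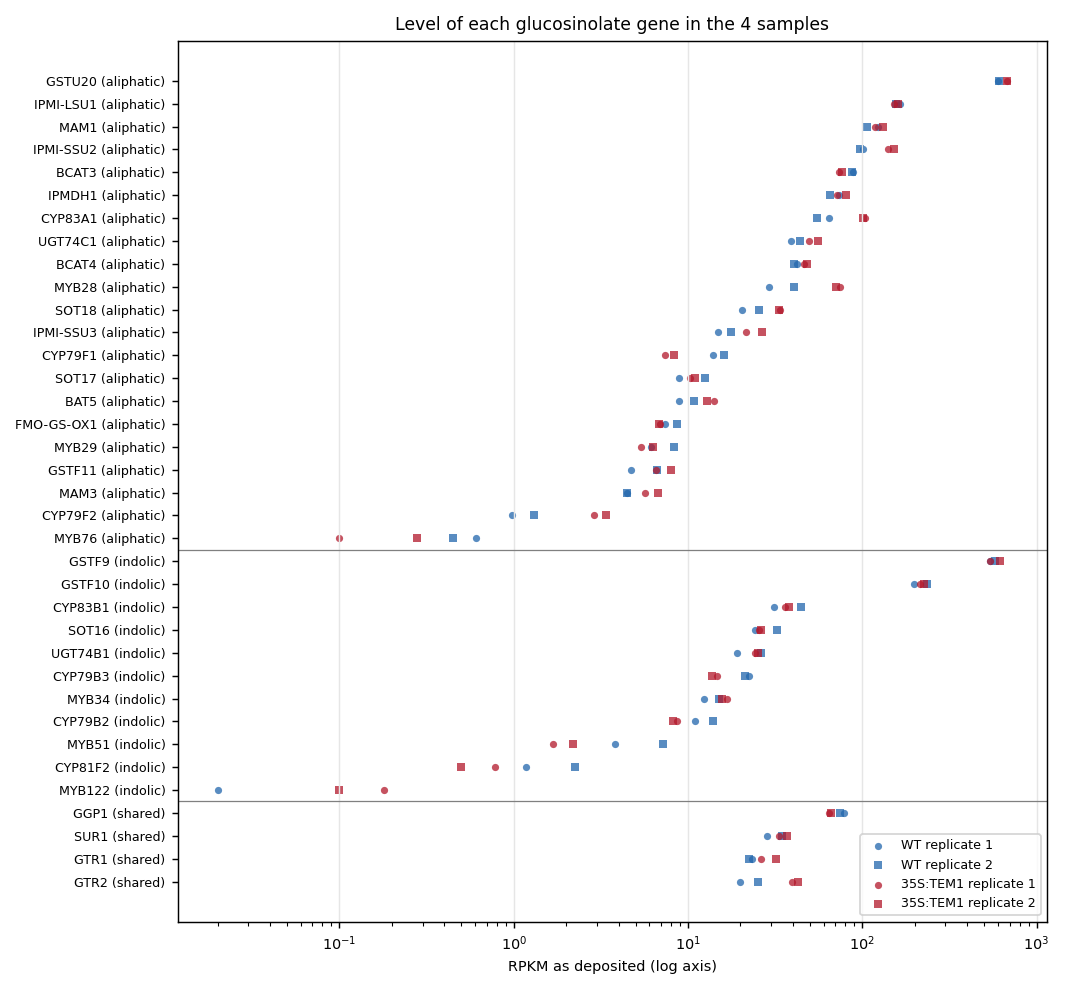
RPKM of 36 members in each of the 4 samples on a log axis, ordered within each branch by the WT mean; values of 0 (MYB122 in WT replicate 2) are not drawn. Levels run from GSTU20 at 597 to 680.1 down to MYB122 at 0.18 or less, and the spread between WT samples is widest for MYB51 and CYP81F2 among the tested indolic genes.

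The steps that both branches use moved little. GGP1 (AT4G30530), which trims the glutathione conjugate, had 64.7 and 65.8 in 35S:TEM1 plants, against 78.4 and 74.3 in WT (-0.22, adjusted p = 0.0777), and it was called lower with equal sample medians (-0.37). SUR1 (AT2G20610), the lyase that leaves the sulfur in place, had 33.5 and 37.0 against 28.3 and 34.8 (0.16, adjusted p = 0.352). Of the carriers, GTR2 (AT5G62680) had 39.5 and 42.9 against 20.0 and 25.2, a 1.82-fold rise (0.84 ± 0.12, adjusted p = 0.00593) that held in all 13 alternative settings. GTR1 (AT3G47960) had 26.2 and 32.0 against 23.4 and 22.4, also without overlap, but did not pass (0.32, adjusted p = 0.0808) and was called with the replicate block only. The ratio of GTR2 to GTR1 was 1.51 and 1.34 in 35S:TEM1 plants, against 0.854 and 1.13 in WT.

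**Figure D4:**
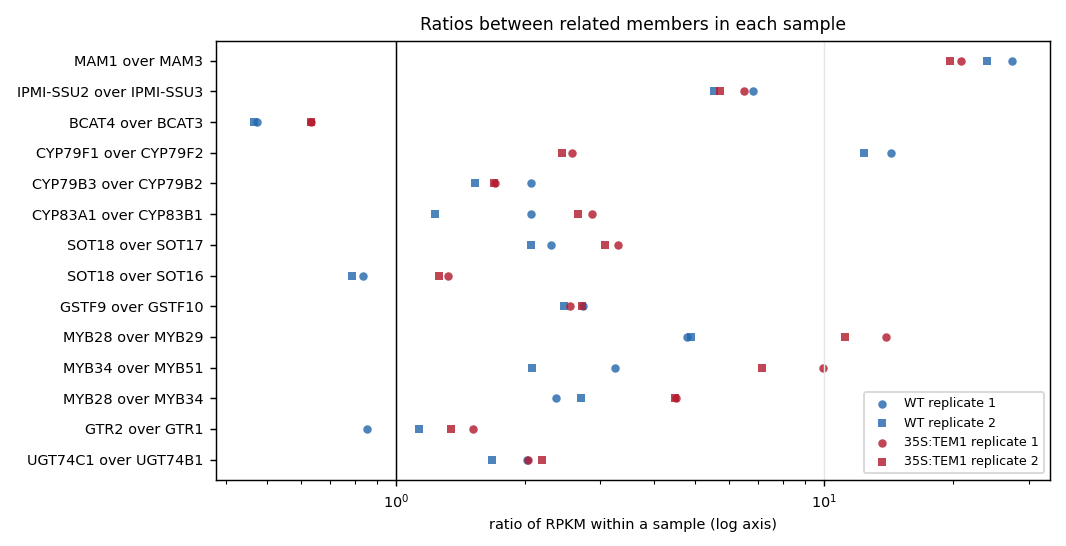
Ratio of RPKM between related members within each sample (log axis), with WT in blue and 35S:TEM1 in red. CYP79F1 over CYP79F2 drops from 14.3 and 12.4 to 2.58 and 2.44, while IPMI-SSU2 over IPMI-SSU3, CYP79B3 over CYP79B2 and GSTF9 over GSTF10 overlap between the genotypes.

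Ratios within a sample cancel its scaling. Of the 14 computed between related members, those of IPMI-SSU2 to IPMI-SSU3, CYP79B3 to CYP79B2 and GSTF9 to GSTF10 overlapped between the genotypes and the rest did not. Of single tested genes 68.0% did not overlap, and no such share was computed for pairs of genes. Because 2 samples against 2 cannot give an exact two-sided permutation p below 0.333, these ratios are descriptions. The ratio of SOT18 to SOT16, of the aliphatic and the indolic branch, was 1.32 and 1.26 in 35S:TEM1 and 0.837 and 0.790 in WT. CYP83A1 over CYP83B1 was 2.87 and 2.66 against 2.07 and 1.23, and MYB28 over MYB34 was 4.50 and 4.47 against 2.36 and 2.70. UGT74C1 over UGT74B1 was 2.03 and 2.19 against 2.02 and 1.67, so the genotypes were barely apart.

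Other genes of the pathway, outside the 38, were read from a separate list of 43, of which 39 were tested. Of these 13 rose and 4 fell, beside 18.3% higher and 7.37% lower among all tested genes. Of 7 other aliphatic genes 4 rose and 1 fell. FMO-GS-OX2 (AT1G62540), an S-oxygenase of the side chain, had 16.6 and 14.1 in 35S:TEM1 plants, against 4.95 and 3.71 in WT (1.62 ± 0.15, adjusted p = 0.00126). The other risers, named after their values were seen, were FMO-GS-OX3 (0.65), FMO-GS-OX4 (0.88) and GSL-OH (AT2G25450), which hydroxylates alkenyl side chains (1.01). FMO-GS-OX5 (AT1G12140), also named after its values were seen, had 22.7 and 21.5 against 19.8 and 20.5 (0.12, adjusted p = 0.311). Thus 3 of the 5 measured S-oxygenase genes were higher, and FMO-GS-OX1 and FMO-GS-OX5 did not pass. IPMDH3 (AT1G31180), a dehydrogenase related to IPMDH1, fell by 0.40 (adjusted p = 0.0172).

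None of 7 other indolic genes rose in limma (0 at an unadjusted p under 0.05), and the methyltransferase gene IGMT1 (AT1G21100) fell, with 1.15 and 1.01 against 1.90 and 1.92 (-0.48 ± 0.14, adjusted p = 0.0457). Among all tested genes 18.3% were higher and 7.37% lower, so these adjusted counts in 7 genes lie near the background. At an unadjusted p under 0.05, 3 of the 7 were lower in limma. Of all 17746 tested genes 5089 were higher and 2078 lower at that level. In IGMT1 10.4% of the exon windows occur in another gene, so reads may be split between copies. Of 6 genes that act on indole-3-acetaldoxime outside glucosinolates, or on its products, 3 rose and 0 fell, also at an unadjusted p under 0.05. CYP71A13, among those that rose, had a WT mean of 0.54, so only its 35S:TEM1 values brought it past the expression limit. The same holds for CYP71A12 and CYP71B15 (WT means of 0.56 and 0.97), which were not called. This count is therefore partly set by the filter. The same background numbers apply, and whether this list differs from the other indolic genes was not tested. Among the 6, the nitrilase gene NIT2 (AT3G44300) had 17.5 and 10.3 against 1.64 and 2.65 (2.22 ± 0.26, adjusted p = 0.00293), and 5.66% of its exon windows occur in another gene.

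In sulfur and glutathione supply 2 of 10 rose, near the 18.3% of all tested genes, and 2 fell, beside 7.37%. The genes named here are single calls, not a result about the list. APR1 (AT4G04610), which reduces activated sulfate, had 50.9 and 49.7 against 15.8 and 25.7 (1.28 ± 0.21, adjusted p = 0.00823). ATPS3 (AT4G14680), which activates sulfate, fell by 0.46 (adjusted p = 0.0268), and GSH2 (AT5G27380), the glutathione synthetase gene, fell by 0.36 (adjusted p = 0.0207). Of 9 other regulators and carriers 4 rose and 0 fell, beside 18.3% higher and 7.37% lower among all tested genes. At an unadjusted p under 0.05 these were also 4 and 0, beside 5089 and 2078 of all 17746 tested genes. SDI1 (AT5G48850), induced by sulfur deficiency and known to repress MYB28 activity, had 6.24 and 7.61 against 1.67 and 3.11 (1.25 ± 0.22, adjusted p = 0.0103). So SDI1 and MYB28 were higher in the same samples. Across the 4 fits that each leave out 1 sample, NIT2, FMO-GS-OX2, FMO-GS-OX4, GSL-OH and APR1 were called in all 4 and SDI1 in 3. FMO-GS-OX3 (0.53 to 0.77), IPMDH3 (-0.45 to -0.35) and GSH2 (-0.39 to -0.33) were called in 2, ATPS3 (-0.55 to -0.36) in 1 and IGMT1 (-0.53 to -0.44) in 0. When either 35S:TEM1 replicate was left out, 9 genes of this list were higher and 0 lower (limma), and without WT replicate 2, 15 were higher and 2 lower.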

How the data were processed

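RNA sequencing of 4 pooled samples was analysed from 1 deposited table. The authors deposited RPKM values, with 1 column for each sample. Tools named in the submitters' processing notes are STAR, Cuffdiff 2.2.1, bcl2fastq 1.8.4 and FastQC, and the build named is TAIR10. Which tool counted reads, and with which annotation, strand setting and filters, is not given in the sources used here. Samples were grouped by genotype label.

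The members and lists were chosen with earlier results of these data known. All members are accounted for, and of the other pathway genes at most the 4 largest called changes in each direction were to be named, besides those stated as chosen later. Genes with a mean RPKM of at least 1 were fitted as log2(RPKM + 1) with limma 3.58.1 in R 4.3.3, using a mean-variance trend, 2-sided, with Benjamini-Hochberg adjustment over 17746 genes. That scale understates the change of low genes. The fit had 2 residual and 4.17 prior degrees of freedom, and was tested on simulated data. Errors of log2 values are SE and those of RPKM are SD.

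Scaling totals came from the most frequent value of 1 read over exon length among low genes. They were 20183817 and 27807143 reads for 35S:TEM1 replicates 1 and 2, and 30425737 and 24140725 for WT. Only 31.3% to 33.5% of low values came out whole within 0.05 of a read, so read numbers are estimates, no count test was run, and floors of 3 reads cover counting error only. Exon lengths, overlaps, 50-base windows and promoters came from the RefSeq annotation of TAIR10.1, matched by locus identifier. TAIR10.1 carries the nuclear chromosomes of TAIR10 with other organelle sequences, and the table holds no coordinates to compare.

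Alternatives were other pseudocounts, filters, variance models and scalings, the replicate block, and leaving out each sample.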

Additional observations from a re-analysis of the deposited data

How the results depend on the processing

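With 2 samples per genotype, a lone remaining sample is assumed to vary like the other genotype. MYB28, CYP79F1, CYP79F2, CYP83A1, CYP79B3 and GTR2 kept their calls in each alternative run. Leaving out each sample in turn gave 1331 to 2955 higher and 545 to 1417 lower genes of all tested, 3 to 8 higher aliphatic members, 1 to 4 lower indolic members, 9 to 15 higher and 0 to 4 lower other pathway genes, and an indolic median of -0.29 to 0.10. Equal sample medians, where the median of all genes was -0.03, gave 1884 higher and 2388 lower genes, 4 higher and 2 lower aliphatic members, 1 lower shared member, 7 lower other pathway genes and an indolic median of -0.21. Quantile normalization gave 2021 higher genes and 2 lower aliphatic members. With no filter on low values 1 indolic member was lower. The cause was not tested.

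Replicate numbers are shared by the labels, but only 2 pairs exist and nothing says that a number marks a batch. Deviations of equal numbers correlated at 0.318 across genes. With the replicate block 4321 genes were higher and 1801 lower, with 9 higher aliphatic, 4 lower indolic and 2 higher shared members.

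Signs turned only in members that did not pass. With equal sample medians these were MAM1 (-0.03), IPMDH1 (-0.03), SOT17 (-0.14), GSTF9 (-0.10), GSTF10 (-0.11) and UGT74B1 (-0.02), and with quantile normalization SOT17 (-0.14). Without 1 sample they were SOT17 (-0.22 to 0.23), CYP83B1 (-0.27 to 0.24), GSTF9 (-0.03 to 0.14), GSTF10 (-0.09 to 0.16), UGT74B1 (-0.09 to 0.35) and SOT16 (-0.31 to 0.09).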
